A study of Homo sapiens with 4 samples.

Results

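The circular RNAs (circRNAs) of untreated PANC-1 cells were set against those of untreated MiaPaCa-2 cells, established human cell lines of pancreatic ductal adenocarcinoma. Members were all circRNA identifiers with at least 10 back-splice counts summed over the 2 untreated libraries, 1811 of the 80821 listed, of which 19382 had a count in either untreated library. The study had 4 libraries, 1 for each line without treatment (control) and 1 for each line after 24 h with thymoquinone (TQ), a compound of black seed, at 20 µM in MiaPaCa-2 and 10 µM in PANC-1. With 1 library a side, the untreated lines have no replicate check, and every interval below covers counting error only. The treated libraries were used to see whether a difference between the lines came back in other libraries of the same lines, with the limit that the dose also differed between them. The table holds no linear gene expression, so the line labels could not be checked against marker genes.

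A circRNA forms when the splicing machinery joins the end of an exon to the start of the same or an earlier exon, which closes the RNA into a ring with no free ends. The ring is read from the back-splice junction and resists ribonuclease R, the enzyme that was used to digest linear RNA in these libraries. Its level depends on transcription of the host gene, on the balance of back-splicing and linear splicing, and on its slow decay. circRNA patterns are known to differ between cell types and between tumour cell lines.

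The control libraries held similar totals, 45094 counts for MiaPaCa-2 and 48631 for PANC-1. The members took 54.7% of the MiaPaCa-2 control counts and 53.4% of those of PANC-1 control. The TQ libraries held 15819 counts in MiaPaCa-2 and 67964 in PANC-1, so a circle missing from treated MiaPaCa-2 was measured at a lower depth. The normalised scale of PANC-1 control was 1.002 times that of MiaPaCa-2 control. Rarefied to 45094 counts, PANC-1 control gave an expected 11729 identifiers with a count, against 11105 observed in MiaPaCa-2 control, and 780.7 against 797 with at least 10 counts. The lines had 3804 identifiers in common, 34.3% of those with a count in MiaPaCa-2 control and 31.5% of those in PANC-1 control.

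In untreated cells 281 members were higher in PANC-1 and 239 were higher in MiaPaCa-2. An identifier was called higher where its normalised count ratio was at least 2 (or at most 0.5) and the exact 99% interval of the ratio excluded 1. The 520 calls made up 28.7% of the members, 15.5% higher in PANC-1 and 13.2% higher in MiaPaCa-2. Another 14 were shared at a like level, meaning that the whole 99% interval lay between 0.5 and 2. The counts could not place the remaining 1277 in either class. The median log2 ratio of PANC-1 over MiaPaCa-2 was -0.0033 over all members, with quartiles of -0.92 and 1.10 (1 count added to each library). The circles thus spread to both sides of a median that the scaling sets near 0. With total counts as the scale the median was -0.11 and the calls were 263 and 258.

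The share of members that could be called depended on abundance. Of the 1089 members with 10 to 19 counts, 23.6% were called, and of the 53 with 100 or more counts, 50.9% were. Among those 53, 11 were higher in PANC-1, 16 were higher in MiaPaCa-2, 10 were shared at a like level and 16 were unresolved. The smallest total with which a circle was shown to be shared at a like level was 77 counts. At the lower limit of the rule, 197 members had exactly 10 counts, and the 53 of them that were called had all 10 in 1 line. Just outside it, 234 identifiers had 9 counts, 73 of them with all 9 in 1 line.

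**Figure D1:**
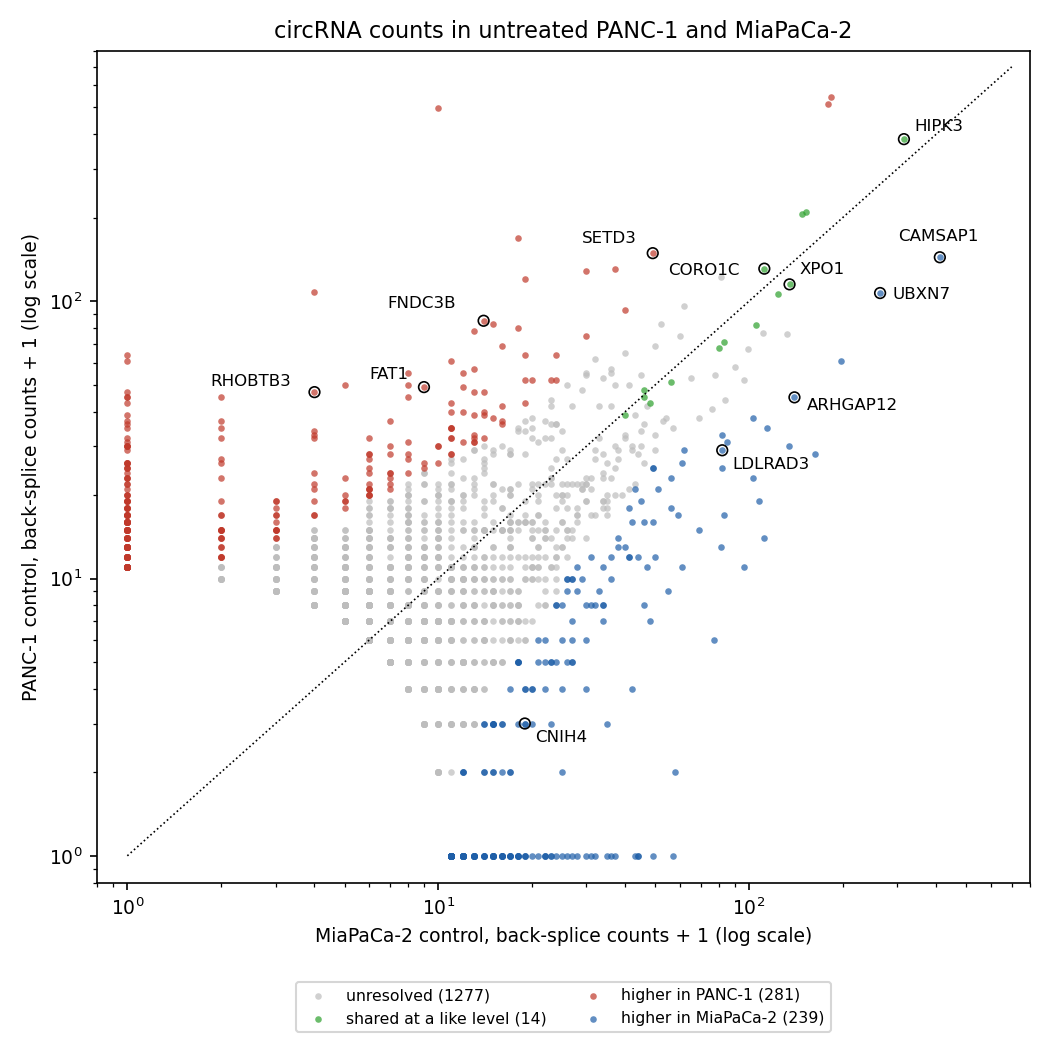
Back-splice counts of the 1811 members in MiaPaCa-2 control (horizontal axis) and PANC-1 control (vertical axis), both as counts plus 1 on a log scale, coloured by call, with 12 circles ringed and named by host gene. The 281 circles higher in PANC-1 lie above the dotted line of equal counts and the 239 higher in MiaPaCa-2 below it, with the identifiers at 0 along each edge.

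No file used here links an identifier to its host gene, its position or its sequence. Host genes are given for circles with a circBase number (the number in the public circRNA catalogue) that general knowledge ties to a host, a link that was not checked against circBase here, and the gene positions rest on it. Of 77 such circles in a list, 65 were in the table and 30 had at least 10 counts over the control libraries. Of these 30, 10 were higher in PANC-1, 6 were higher in MiaPaCa-2, 3 were shared at a like level and 11 were unresolved. The called share of 53.3% stands beside 28.7% of all members, and the listed circles were more abundant, with a median of 69 counts against 16. Among those with at least 50 counts, 10 of 19 listed circles (52.6%) and 92 of 199 members (46.2%) were called. In the TQ libraries 7 of the 10 circles higher in PANC-1 and 3 of the 6 higher in MiaPaCa-2 were called the same way, and 0 the opposite way, beside 44.7% and 39.9% of all called members with at least 10 TQ counts. With TMM scaling (a trimmed mean of ratios) over every identifier with a count, which gives the TQ libraries another scale, these were 8 and 1, with 1 the opposite way, and with total counts 6 and 3. Over all members recurrence rose with abundance. At 50 to 99 control counts, 25 of 34 PANC-1 calls and 16 of 31 MiaPaCa-2 calls recurred at the main scale. At 100 or more these were 11 of 11 and 10 of 16. The listed circles, being more abundant, are to be read beside these counts. The median log2 ratio of the 30 was 0.46, against -0.0033 for all members.

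The circle of CAMSAP1 (hsa_circ_0001900) had the most counts of any circRNA in untreated MiaPaCa-2. CAMSAP1 binds the minus ends of microtubules, and its gene lies on chromosome 9 at 135808487 to 135907228 (GRCh38, GENCODE 29, minus strand). Its back-splice read was counted 410 times in untreated and 143 times in treated MiaPaCa-2, and 143 and 153 times in PANC-1. As a share of the library this was 90.9, 90.4, 29.4 and 22.5 per 10000 counts in the same order, so both MiaPaCa-2 libraries stood above both PANC-1 libraries. The normalised control ratio was 2.87-fold higher in MiaPaCa-2 (99% interval 2.24 to 3.73), and the TQ ratio was 3.10-fold (2.28 to 4.22). With TMM over every identifier with a count the TQ ratio was 1.94-fold (1.42 to 2.63), short of the fold asked for.

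The circle of UBXN7 (hsa_circ_0001380) followed the same order. UBXN7 is an adaptor of the p97 segregase in the ubiquitin system. MiaPaCa-2 held 263 counts of it untreated and 154 treated, and PANC-1 held 106 and 154. It was 2.49-fold higher in MiaPaCa-2 among the control libraries (1.85 to 3.39) and 3.32-fold among the TQ libraries (2.46 to 4.49), or 2.07-fold there (1.53 to 2.80) with that other TMM. The circle of CNIH4 (hsa_circ_0000190), a cargo receptor of the early secretory pathway, was counted 18 times in untreated and 11 times in treated MiaPaCa-2 against 2 and 7 times in PANC-1. Its ratio was 9.02-fold higher in MiaPaCa-2 control with a wide interval (1.59 to 188), and 5.22-fold in TQ (1.38 to 22.6), where the other TMM gave 3.26-fold and no call (0.859 to 14.1).

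For 3 circles the higher level of untreated MiaPaCa-2 was not called in the treated libraries. The circle of ARHGAP12 (hsa_circ_0000231), a GTPase-activating protein, had 139 counts in MiaPaCa-2 control and 44 in PANC-1 control, 3.17-fold higher in MiaPaCa-2 (2.03 to 5.11). In the TQ libraries it had 19 and 74 counts, and MiaPaCa-2 over PANC-1 came to 0.853 (0.406 to 1.65). The circle of TNPO3 (hsa_circ_0001741), a nuclear import receptor of splicing factors, had 102 and 37 counts in the controls, 2.76-fold higher in MiaPaCa-2 (1.68 to 4.71), and 13 and 64 in TQ, where the same ratio was 0.675 (0.272 to 1.46). The circle of LDLRAD3 (hsa_circ_0006988), a membrane protein of the low-density lipoprotein receptor family, had 81 and 28 counts in the controls, 2.90-fold higher in MiaPaCa-2 (1.65 to 5.37). Its TQ counts were 26 and 70, for a ratio of 1.23 (0.646 to 2.24). At the main scale the control and TQ intervals of ARHGAP12 and TNPO3 did not overlap, and those of LDLRAD3 did. Those of TNPO3 overlapped with total counts, where the TQ interval ran to 1.88. Those of LDLRAD3 did not overlap with TMM over every identifier with a count, where the TQ interval ended at 1.39. The TQ direction of ARHGAP12 turned with total counts as the scale, and that of LDLRAD3 with TMM over every identifier with a count, under which TNPO3 was called higher in PANC-1 TQ, 2.38-fold (1.10 to 5.89). Whether these line ratios differed between the treatments was not tested.

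Circles higher in PANC-1 came from hosts of several kinds. The circle of SETD3 (hsa_circ_0000567), a methyltransferase of actin whose gene lies on chromosome 14 at 99397746 to 99480889 (minus strand), had 148 counts in untreated and 146 in treated PANC-1. MiaPaCa-2 had 48 and 5. The control ratio was 3.08-fold higher in PANC-1 (2.01 to 4.86) and the TQ ratio was 8.79-fold (3.01 to 41.5). The circle of NRIP1 (hsa_circ_0004771), a corepressor of nuclear receptors on chromosome 21, had 18 and 68 counts in untreated and treated PANC-1 but 1 and 2 in MiaPaCa-2. With a single count in MiaPaCa-2 control its ratio of 18.0 had a 99% interval of 2.02 to 3781, so only its lower limit carried information. The TQ ratio was 10.2 (2.09 to 202).

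Of the 7 listed members with membrane or secretory hosts, 3 were higher in PANC-1, those of FNDC3B, FAT1 and RELL1. Another 2, CNIH4 and LDLRAD3, were higher in MiaPaCa-2 and 2 were unresolved, beside 15.5% and 13.2% of all members in the 2 directions. Those shares are not matched for abundance, and at 50 to 99 control counts they were 23.3% and 21.2%. The circle of FNDC3B (hsa_circ_0001361), a membrane protein with fibronectin type III domains on chromosome 3 at 172039628 to 172401665, had 84 and 117 counts in PANC-1 control and TQ. It had 13 in MiaPaCa-2 control and 0 in MiaPaCa-2 TQ. The control ratio was 6.45-fold higher in PANC-1 (3.06 to 15.8). In TQ it was 11.7-fold higher against a floor of 3 counts in the library at 0 (lower 99% limit 6.50). The circle of FAT1 (hsa_circ_0001461), an atypical cadherin, had 48 counts in each PANC-1 library and 8 and 2 in MiaPaCa-2 control and TQ, ratios of 5.99 (2.31 to 19.9) and 7.22 (1.44 to 144). The circle of RELL1 (hsa_circ_0001400), a membrane protein related to a tumour necrosis factor receptor family member, had 11 counts in PANC-1 control and 0 in MiaPaCa-2 control. It had 22 and 4 in the TQ libraries, where its ratio of 1.66 (0.433 to 10.8) was unresolved.

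Of the 7 listed members with cytoskeletal hosts, 3 were higher in PANC-1 and 2, CAMSAP1 and ARHGAP12, were higher in MiaPaCa-2. Another 1 was shared and 1 unresolved. Of all members 15.5% and 13.2% were called in the 2 directions, shares that again are not matched for abundance. RHOBTB3 is a protein with a GTPase-like domain and BTB domains, encoded on chromosome 5 at 95713522 to 95824383. Its circle (hsa_circ_0007444) had 46 and 39 counts in the PANC-1 libraries but 3 and 0 in those of MiaPaCa-2, untreated first, a control ratio of 15.3 (3.83 to 141). In TQ it was 3.91-fold higher in PANC-1 against the floor of 3 counts (lower 99% limit 2.07). The circle of SEPTIN9 (hsa_circ_0005320), a subunit of septin filaments, had 48 counts in PANC-1 control and 11 in MiaPaCa-2 control, a ratio of 4.35 (1.87 to 11.9). With 94 and 20 counts in TQ the ratio was 1.41 (0.757 to 2.88), which was not called, though it was with TMM over every identifier with a count, at 2.27 (1.21 to 4.62). The circle of SPECC1 (hsa_circ_0000745), a coiled-coil cytoskeletal protein, had 15 counts in PANC-1 control and 0 in MiaPaCa-2 control, 4.99-fold higher against that floor (lower 99% limit 2.36). With 10 and 4 counts in TQ the ratio was 0.753 (0.156 to 5.42).

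Among the circles of kinase and receptor genes, the 2 of PTK2, the focal adhesion kinase, did not share a call. The circle hsa_circ_0003221 had 68 and 79 counts in untreated and treated PANC-1 and 15 and 2 in the other line, ratios of 4.52 (2.19 to 10.5) and 11.9 (2.45 to 234). The circle hsa_circ_0005273 had 10 and 21 there and 9 and 1 in MiaPaCa-2, and its control ratio of 1.11 (0.301 to 4.20) overlapped that of the other PTK2 circle. The circle of IGF1R (hsa_circ_0005035), the receptor of insulin-like growth factor 1, had 30 and 72 counts in untreated and treated PANC-1 but 12 and 7 in MiaPaCa-2. Its ratios were 2.49 (1.02 to 6.83) and 3.10 (1.18 to 11.1), and the control call was lost with total counts, where the ratio was 2.32 (0.951 to 6.35), and with DESeq2 size factors, where it was 2.40 (0.986 to 6.59). With total counts the TQ call was lost too (lower 99% limit 0.912). The circle of EPHB4 (hsa_circ_0001730), an ephrin receptor, had 68 and 55 counts in MiaPaCa-2 against 37 and 43 in PANC-1. It was 1.84-fold higher in MiaPaCa-2 control (1.08 to 3.23), short of the fold asked for, and 4.25-fold higher in MiaPaCa-2 TQ (2.47 to 7.38).

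**Figure D2:**
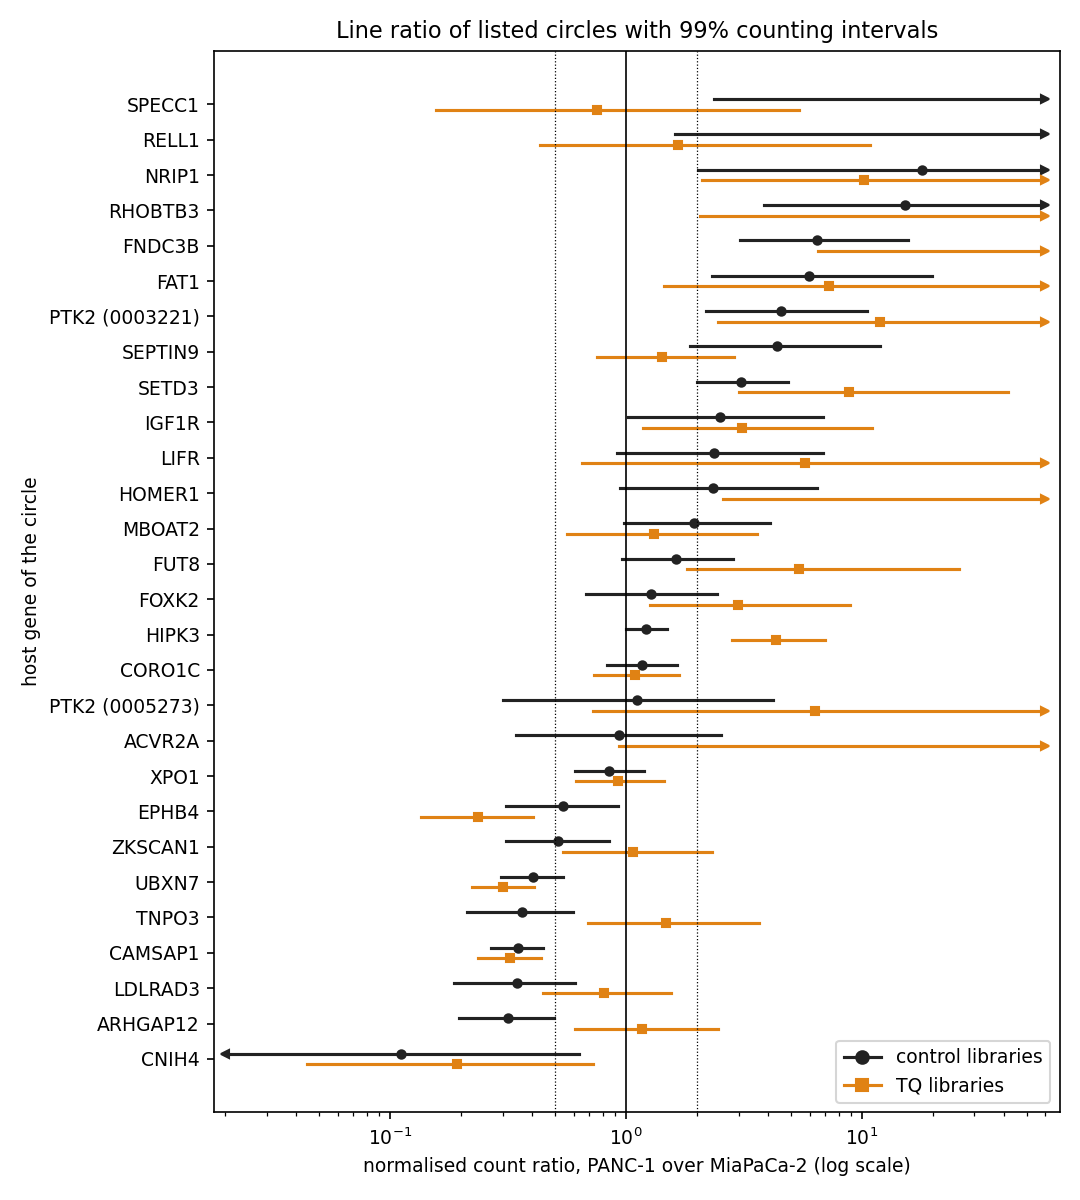
Normalised count ratio of PANC-1 over MiaPaCa-2 (horizontal log axis, with lines at 0.5, 1 and 2) in the control libraries (black circles) and the TQ libraries (orange squares). Shown by host gene are the listed circles with at least 10 control counts that the text names. Bars are 99% counting intervals, with arrows where an interval runs past the axis. CAMSAP1, UBXN7 and CNIH4 were called higher in MiaPaCa-2 in both pairs. NRIP1, RHOBTB3, FNDC3B, FAT1, SETD3, IGF1R and 1 PTK2 circle were called higher in PANC-1 in both. Both intervals of EPHB4 lie left of 1, though only its TQ ratio was called. ARHGAP12, TNPO3 and LDLRAD3 have TQ intervals that include 1.

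The circles shared at a like level were led by that of HIPK3 (hsa_circ_0000284), a serine/threonine kinase. It had 383 counts in PANC-1 control and 314 in MiaPaCa-2 control, a ratio of 1.22 (0.998 to 1.49), and it stood second in counts in MiaPaCa-2 control. In the TQ libraries, with 531 and 37 counts, the ratio was 4.32 (2.82 to 6.98), so its like level held in the untreated libraries alone. The circle of CORO1C (hsa_circ_0000437), an actin-binding protein, had 130 and 111 counts in PANC-1 and MiaPaCa-2 control and 192 and 53 in TQ. Its ratios of 1.17 (0.831 to 1.65) and 1.09 (0.732 to 1.67) both lay within the bounds of a like level, although in TQ this was lost with TMM over every identifier with a count, at 1.75 (1.17 to 2.68). The circle of XPO1 (hsa_circ_0001017), the main nuclear export receptor, had 114 and 134 counts in the controls and 157 and 51 after treatment, with ratios of 0.849 (0.605 to 1.19) and 0.927 (0.612 to 1.44), and its TQ interval ran past those bounds with that TMM (0.981 to 2.31) and with total counts (0.473 to 1.12). Second to HIPK3 in counts among the shared circles was hsa_circ_0001821, with 209 and 151 in the controls (ratio 1.38, 1.04 to 1.83) and 271 and 68 in TQ (ratio 1.20, 0.847 to 1.74). Of all 14 shared circles, 6 were shared again in TQ, 3 were called different there and 5 were unresolved.

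Other listed circles were unresolved in the controls. That of ZKSCAN1, a zinc finger transcription factor, had a ratio of 0.517 (0.309 to 0.845). It was called higher in MiaPaCa-2 with total counts, at 0.480, and with DESeq2 size factors, at 0.498. Those of FUT8, which adds core fucose to glycoproteins, LIFR, a cytokine receptor, HOMER1, a scaffold protein, and MBOAT2, an acyltransferase, had ratios from 1.64 to 2.36. That of MBOAT2 was called higher in PANC-1, at 2.03, with a scale from the 2 control libraries alone. Those of FOXK2, a forkhead transcription factor, and ACVR2A, an activin receptor, had 1.28 and 0.935. FUT8, FOXK2 and HOMER1 circles were called higher in PANC-1 among the TQ libraries, with 90, 89 and 48 counts there against 5, 9 and 0 in MiaPaCa-2 TQ. The FOXK2 call there was lost with total counts (lower 99% limit 0.975).

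**Figure D3:**
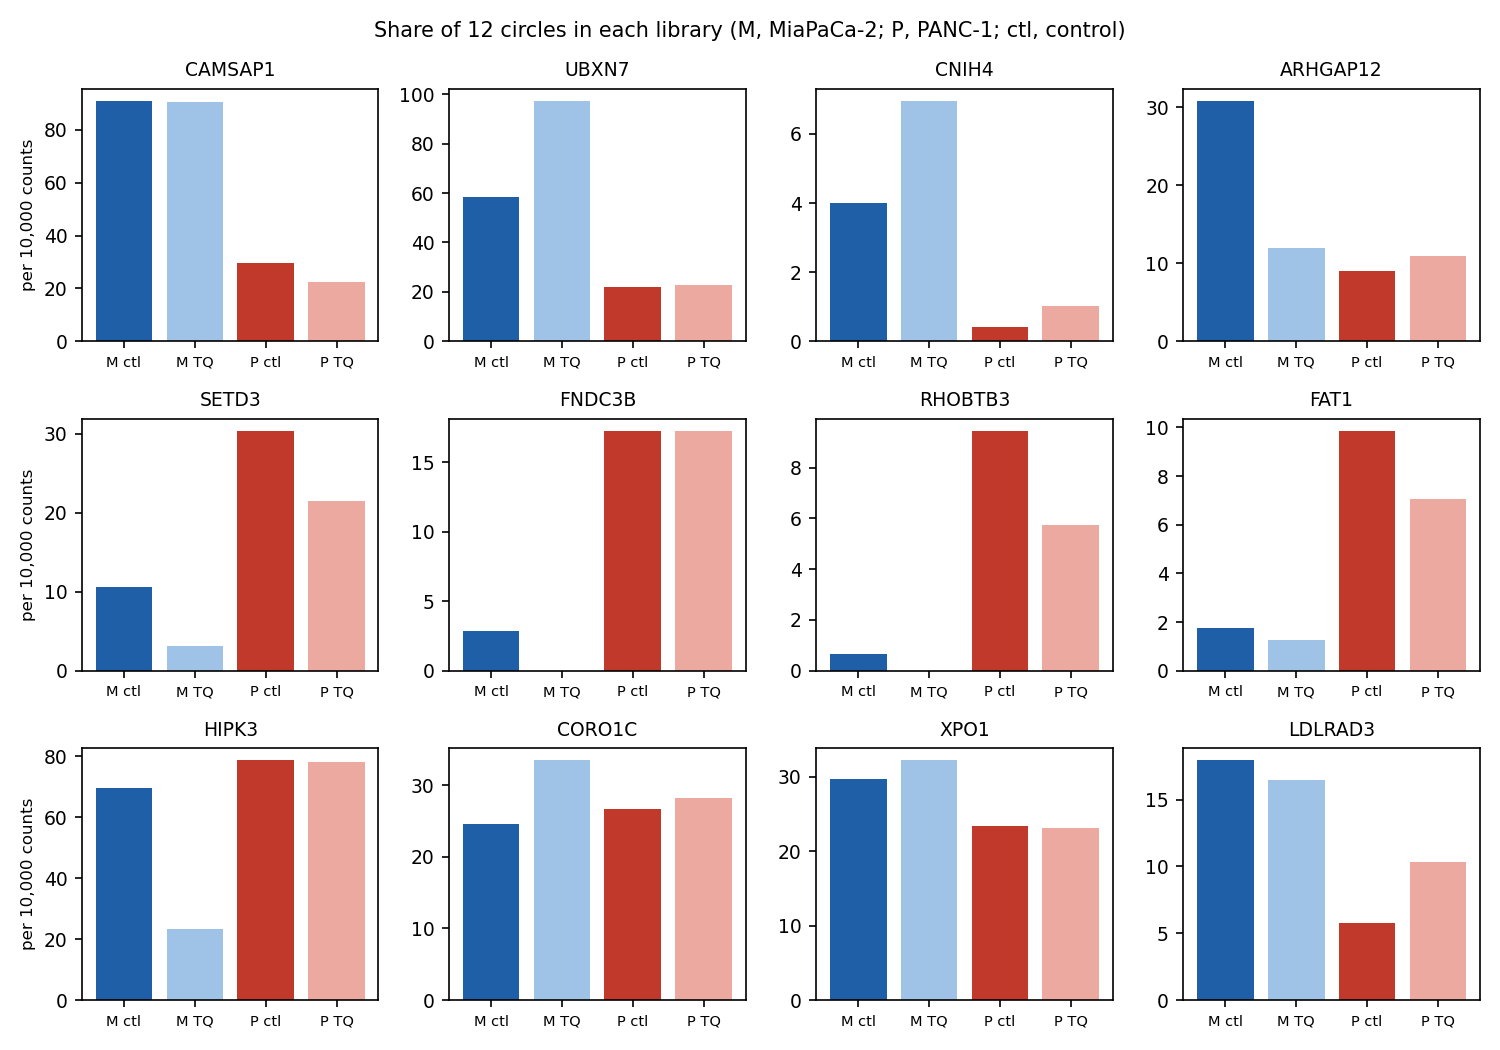
Share of 12 circles in each library, in counts per 10000 back-splice counts (vertical axes, each from 0 and on its own scale), for MiaPaCa-2 control and TQ (dark and light blue) and PANC-1 control and TQ (dark and light red), 1 library per bar with no error bar. The CAMSAP1 circle stood at 90.9 and 90.4 in MiaPaCa-2 against 29.4 and 22.5 in PANC-1, and the HIPK3 circle at 69.6 and 23.4 against 78.8 and 78.1.

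Other circles, chosen by the size of their ratio, their counts or their p, had no host that could be named here. PANC-1 held 495 and 625 counts of circRNA12135, untreated and treated, where MiaPaCa-2 held 9 and 4, a control ratio of 54.9 (24.4 to 159) and a TQ ratio of 47.0 (14.8 to 281). Most counts in PANC-1 control fell on hsa_circ_0001006, with 546 counts against 182 in MiaPaCa-2 control, a ratio of 2.99 (2.40 to 3.76). After treatment the counts were 891 and 61 and the ratio 4.40 (3.15 to 6.34). Next came circRNA1218, with 513 and 179 counts in the controls, a ratio of 2.86 (2.29 to 3.60), and 632 and 69 after treatment, a ratio of 2.76 (2.00 to 3.91). All 3 were thus higher in both PANC-1 libraries than in both MiaPaCa-2 libraries after scaling. On the other side, hsa_circ_0002137 had 76 and 37 counts in MiaPaCa-2 but 5 and 8 in PANC-1, 15.2-fold higher in the controls (5.07 to 72.9) and 15.4-fold in TQ (5.75 to 51.9).

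Line-restricted circles, with at least 10 counts in 1 control library and 0 in the other, numbered 143 in PANC-1 and 117 in MiaPaCa-2. These were 16.6% of the 863 circles with at least 10 counts in PANC-1 control and 14.7% of the 797 in MiaPaCa-2 control. A zero count allows a share of up to 0.00665% of MiaPaCa-2 control and 0.00617% of PANC-1 control, taken as 3 counts. The PANC-1 set held up to 63 counts per circle and the MiaPaCa-2 set up to 56, with medians of 14 and 12.

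In the treated libraries, 99 of the PANC-1 set and 28 of the MiaPaCa-2 set were again seen in their own line and in neither library of the other. Of the 143, 113 also had 0 counts in MiaPaCa-2 TQ, and 99 of those had counts in PANC-1 TQ, 75 of them at least 10. Summed over the 143, PANC-1 TQ had 2350 counts and MiaPaCa-2 TQ 98, a normalised ratio of 7.22. Of the 117, 53 also had 0 in PANC-1 TQ, and 28 of those had counts in MiaPaCa-2 TQ, 5 of them at least 10. Absent from the treated library of their own line but present in that of the other were 23 of the 117 and 3 of the 143. Summed over the 117, MiaPaCa-2 TQ had 526 counts and PANC-1 TQ 593, a normalised ratio of 2.95 in favour of MiaPaCa-2. This 2.95 and the 7.22 rest on the main scale, which puts PANC-1 TQ at 3.32 times MiaPaCa-2 TQ. Over the scalings tried that factor ran from 2.07 to 4.30, and both ratios move with it. Another 64 of the 117 had counts in PANC-1 TQ, up to 63 for a single circle, so 0 in PANC-1 control did not mean that the line lacked the circle. MiaPaCa-2 TQ was the shallowest library, with 5089 identifiers seen against 14965 in PANC-1 TQ. The share of all members at 0 in each TQ library was not counted, so the 99 and the 28 have no such share beside them. The part of depth in these counts was not tested.

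The circle with the widest margin at 0 in both MiaPaCa-2 libraries was hsa_circ_0002153, with 63 and 52 counts in untreated and treated PANC-1. Against a floor of 3 counts it was 21.0-fold higher in PANC-1 control (lower 99% limit 11.4) and 5.22-fold higher in TQ (2.81). The next, circRNA32840, had 60 counts in PANC-1 control and 0 in the other 3 libraries. The circle with the widest margin at 0 in both PANC-1 libraries was circRNA13162, with 48 and 13 counts in untreated and treated MiaPaCa-2. Against the same floor it was 16.0-fold higher in MiaPaCa-2 control (lower 99% limit 8.59) and 14.4-fold in TQ (6.60). After it came hsa_circ_0004161, with 43 and 5 counts in MiaPaCa-2. In all, 14 of the 143 and 25 of the 117 had counts in 1 of the 4 libraries only, as circRNA32840 did. A member seen in 1 library only has to belong to these sets, so these are also 14 and 25 of all 1811 members. The treated library of the line differed in depth between the sets, 67964 counts for PANC-1 and 15819 for MiaPaCa-2. The part of depth in the 14 and the 25 was not tested.

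Over all called circles the difference between the lines returned in part in the treated libraries. Of the 281 circles higher in PANC-1 control, 228 had at least 10 counts over the TQ libraries. Of these 228, 102 (44.7%) were called higher in PANC-1 TQ and 2 were called higher in MiaPaCa-2 TQ. Of the 239 higher in MiaPaCa-2 control, 138 had at least 10 counts in TQ, where 55 (39.9%) were called higher in MiaPaCa-2 and 3 higher in PANC-1. Over all 1598 identifiers with at least 10 TQ counts, 12.4% were called higher in PANC-1 TQ and 9.01% higher in MiaPaCa-2 TQ. Among the 779 members not called in the controls, these shares were 9.50% and 7.06%. Another 53 and 101 circles of the 2 called lists, under 10 counts in TQ, could not be called there. Over the full lists the recurring calls were thus 102 of 281 and 55 of 239. A circle high in 1 line can reach 10 TQ counts through that line alone. The 44.7% and 39.9% therefore hold only for circles that reached 10 TQ counts. Recurrence depended on abundance. Of all calls at 10 to 19 control counts, whatever their TQ counts, 17 of 141 higher in PANC-1 and 10 of 116 higher in MiaPaCa-2 recurred. At 100 or more these were 11 of 11 and 10 of 16.

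The balance of the recurring calls depended on the scale given to the TQ libraries. The 102 and 55 became 70 and 70 with total counts and 154 and 35 with TMM over every identifier with a count, while the calls among the controls stayed at 263 to 293 and 233 to 258 over the scalings tried. The median log2 ratio in TQ over the identifiers tested there was 0.59, or 0.22 with total counts and 1.27 with that TMM, so TQ ratios near 1 carry no firm direction. Summed counts compare the called lists without that scale. In the controls, the PANC-1 to MiaPaCa-2 ratio of the list higher in PANC-1 was 31.0 times that of the list higher in MiaPaCa-2, a value the calls themselves set. In the TQ libraries, which the calls did not use, it was 11.5 times. Across 1145 members whose counts reached 10 in both pairs, the log2 ratios of the pairs had a Pearson correlation of 0.56 and a Spearman correlation of 0.57, and across the 141 that reached 50 in both 0.67 and 0.75. These describe identifiers within 4 libraries, which are not independent replicates.

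**Figure D4:**
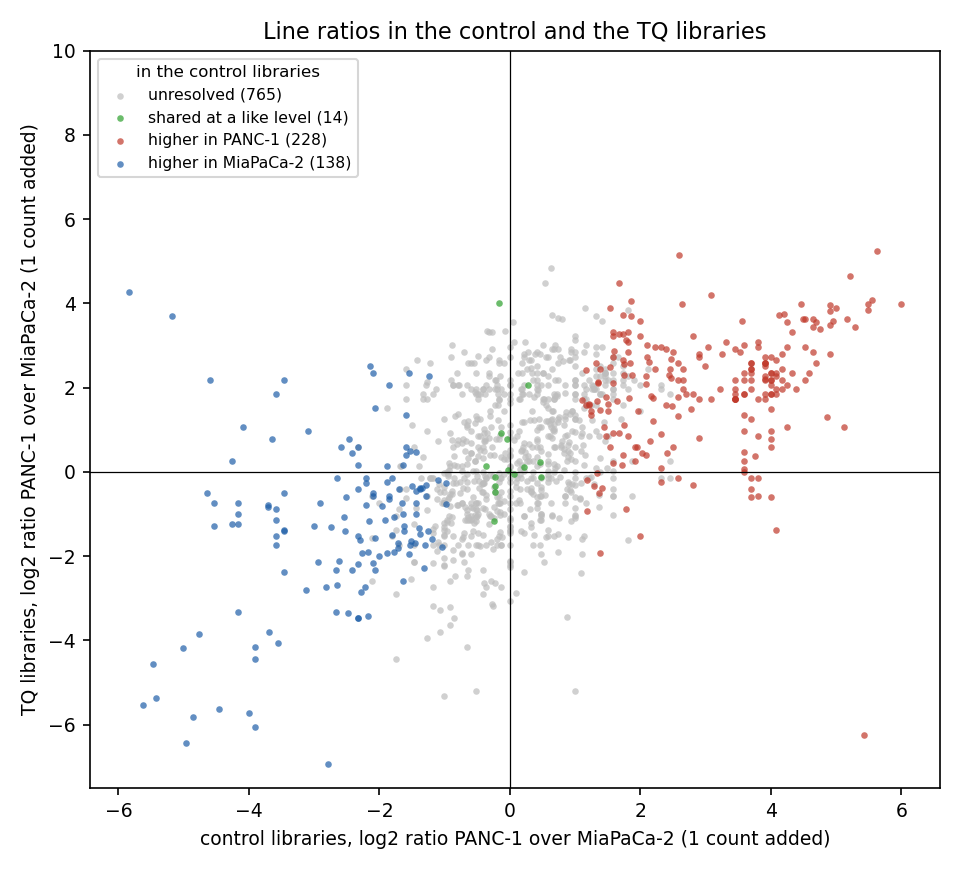
Log2 ratio of PANC-1 over MiaPaCa-2 in the control libraries (horizontal axis) and in the TQ libraries (vertical axis), with 1 count added to each library, for the 1145 members with at least 10 counts in each pair, coloured by their call in the controls. Most circles called higher in PANC-1 lie in the upper right (208 of 228 above 0 on the vertical axis). Most of those higher in MiaPaCa-2 lie in the lower left (111 of 138 below 0). Of all 1145, 59.1% lie above 0 and 40.9% below 0, on an axis whose zero the TQ scale sets. A circle high in 1 line can reach the 10 TQ counts through that line alone.

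More identifiers were called between the lines than between the libraries of 1 line. For this comparison the 827 identifiers that passed edgeR's filter on low counts over all 4 libraries were used, each comparison counting those with at least 10 counts over its own 2 libraries. Between the lines, 39.8% of 821 were called in the controls and 34.3% of 779 in TQ. Between TQ and control, 11.3% of 654 were called within MiaPaCa-2 and 7.07% of 750 within PANC-1. Over all identifiers with at least 10 counts the shares were 28.7%, 21.4%, 10.6% and 8.87% in the same order. The within-line shares hold treatment, culture and library preparation together, and the comparisons share libraries and differ in depth, so no test was made of their difference.

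**Figure D5:**
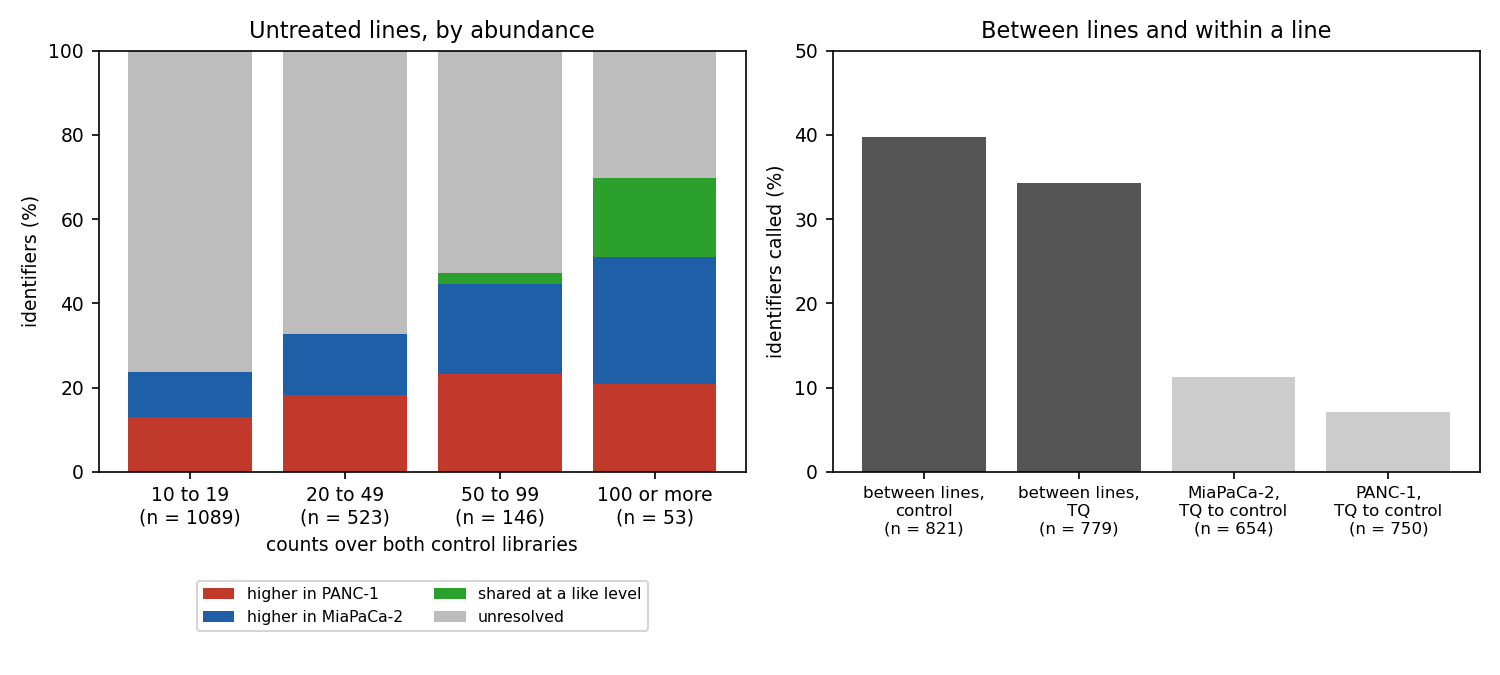
Left, percent of members higher in PANC-1 (red), higher in MiaPaCa-2 (blue), shared at a like level (green) or unresolved (grey) by their counts over both control libraries. Right, percent of identifiers called in each comparison of 2 libraries among those that passed the low-count filter, 39.8% and 34.3% between the lines (dark bars) and 11.3% and 7.07% between TQ and control within a line (light bars), with no error bars since each comparison has 1 library a side.

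A test with a spread between libraries was possible only by taking control and TQ as 2 libraries of a line. edgeR's quasi-likelihood test with terms for treatment and line, with 1 residual degree of freedom, called 1 of 827 identifiers higher in PANC-1 (0.121%) and 0 higher in MiaPaCa-2 (0.00%) at an adjusted p under 0.05, with 146 at an unadjusted p under 0.05. DESeq2 called 41 and 26. The call was circRNA12135, with a log2 difference of 5.67 (SE 0.24, adjusted p = 0.0368 by edgeR). Of the listed circles 29 were tested, 10 had an unadjusted p under 0.05 and 0 passed the adjustment. The lowest adjusted p among them by edgeR was 0.184, for CAMSAP1 at a log2 difference of -1.58 (SE 0.18) and UBXN7 at -1.52 (SE 0.22), each higher in both MiaPaCa-2 libraries. With no treatment term, edgeR called 92 and 66 over all 4 libraries. Fits of 3 libraries, which lack that term as well, gave 340 and 92 calls without MiaPaCa-2 control, 139 and 73 without MiaPaCa-2 TQ, 47 and 31 without PANC-1 TQ and 1 and 0 without PANC-1 control. In these the lone library of a line is assumed to vary like the others, and 1154 to 1346 identifiers passed the filter in place of 827.

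The kinds of identifier also took different shares of the control libraries. Identifiers that begin with ciRNA, the usual name for circles of intron lariats, had 59 members, 18 higher in MiaPaCa-2 and 7 higher in PANC-1, with a median log2 ratio of -0.91. They took 7.47% of the MiaPaCa-2 control counts (95% Clopper-Pearson interval 7.23 to 7.72) and 4.87% of those of PANC-1 control (4.68 to 5.06). One of them, ciRNA2804, had 43 and 56 counts in untreated and treated MiaPaCa-2 but 0 and 7 in PANC-1. In the class of circBase numbers from 10000 upward, 63 of 347 members were higher in PANC-1 and 27 in MiaPaCa-2, with a median log2 ratio of 0.36. The 328 members without a circBase number split into 60 and 52, and the 1077 with circBase numbers below 10000 into 151 and 142, beside 15.5% and 13.2% of all members. All 14 circles shared at a like level had circBase numbers below 10000, 1.30% of that class beside 0.773% of all members. No circle with fewer than 77 control counts was placed at a like level. How many members of each class reached that total was not counted, so the part of abundance in this was not tested.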

How the data were processed

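The deposited table gives, for each circRNA identifier and library, a raw whole-number count of reads across the back-splice junction. Per the labels' protocols, ribosomal RNA was removed, linear RNA was digested with ribonuclease R, and strand-specific libraries were read as pairs of 150 bases. Per the submitters' processing notes, the genome build was GRCh38.p13 and the tools included TopHat2, TopHat, Bowtie2, cutadapt, FastQC and edgeR. For the circRNA caller, no name is given in the sources used here. PCR copies cannot be told from molecules, so intervals and floors cover counting error only.

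Columns were matched to libraries by the names in the labels. Scales came from TMM (edgeR) over the 827 identifiers passing filterByExpr. Ratios have exact conditional binomial 99% intervals, and a library at 0 takes a floor of 3 counts. The lines over 4 libraries were tested with edgeR's quasi-likelihood test (treatment and line terms, Benjamini-Hochberg adjustment at 0.05). Scripts were tested on simulated data. Alternatives were other scalings, folds, minimums and interval levels, leaving out ciRNA identifiers, DESeq2, no filter, no treatment term and each library left out. Circles named were the listed ones with a known host (hosts from general knowledge of circBase numbers, positions from GENCODE 29), at most 2 other identifiers per direction and list by the 99% limit farthest from 1, the 2 most abundant per control library and of those shared, and the 2 lowest p per direction in edgeR. Members, list and tests were chosen with earlier results of these data known. Some unresolved listed circles are counted but not reported here by name. Circle sequences and coordinates were not used here. The software was Python 3.11.15 with scipy 1.17.1 and numpy 2.4.6, and R 4.3.3 with DESeq2 1.42.0 and edgeR 4.0.16. Nothing says that the libraries came from separate cultures, so p-values measure only the spread between these libraries, which may be technical. In the edgeR fit with both terms that spread is how the line ratio differed between the control and TQ pairs. It therefore also holds any difference between the lines in response to their TQ doses.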

Additional observations from a re-analysis of the deposited data

Results flagged for a closer look

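For 5 circles the lines differed in opposite directions in the control and the TQ libraries, each past a ratio of 2 with a 99% interval that excluded 1. The difference between the pairs was not tested, and each value rests on 1 library per group. With the MiaPaCa-2 libraries first, then those of PANC-1, and control before TQ in each, circRNA5825 had 56, 0, 0 and 63 counts, circRNA18380 had 35, 0, 0 and 42, and circRNA2993 had 0, 22, 42 and 0. The log2 ratio of PANC-1 over MiaPaCa-2 (1 count added) in TQ minus that in control was 10.10 for circRNA5825, 8.87 for circRNA18380 and -11.68 for circRNA2993. These 3 had counts in 2 libraries and 0 in the other 2, in a crosswise pattern that follows neither the line nor the treatment. For hsa_circ_0001278, with 60, 4, 25 and 79 counts, the difference was 3.50, and for hsa_circ_0006741, with 9, 23, 25 and 20, it was -3.30. The control ratio of hsa_circ_0006741 was 2.77 (1.01 to 9.02), with a lower limit so near 1 that its control call depends on the scale.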

How the results depend on the processing

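The labels give no replicate numbers, with 1 library per line and treatment, so libraries could be matched by treatment alone. The edgeR test did this through its treatment term. The control calls (281 higher in PANC-1, 239 in MiaPaCa-2) stayed within 1.5 times under the 5 scalings, the other folds and intervals, no minimum and no ciRNA identifiers. They were 140 and 123 with a minimum of 20 counts and 45 and 47 with 50, where fewer identifiers enter. The recurring calls (102 and 55) were 154 and 35 with TMM over every identifier with a count, 64 and 34 at a fold of 4 and 59 and 36 with an interval stricter than 99%. Those higher in PANC-1 were 156 with a 95% interval, and those higher in MiaPaCa-2 were 88 with no minimum and 34 with 20 counts, while a minimum of 50 gave 35 and 18. Line-restricted circles (143 and 117) were 781 and 678 with a minimum of 5 counts and 31 and 22 with 20. The edgeR calls (1 and 0) were 41 and 26 with DESeq2, 9 and 11 with its size factors in edgeR, 10 and 5 with no filter and 92 and 66 with no treatment term. Leaving out 1 library gave from 1 to 340 higher in PANC-1 and from 0 to 92 higher in MiaPaCa-2. Those fits also lack the treatment term and test other identifiers, so they stand against the 92 and 66, and the cause was not tested. The ciRNA share over members alone was 3.17% in MiaPaCa-2 control and 1.95% in PANC-1 control. The number of identifiers at equal depth, PANC-1 over MiaPaCa-2, was 1.06, and 1.03 with at least 2 counts. Of the 30 listed circles, IGF1R lost its control call and ZKSCAN1 and MBOAT2 gained one under another scaling. Their TQ calls (11 higher in PANC-1, 4 in MiaPaCa-2) were 16 and 2 with TMM over every identifier with a count and 9 and 4 with total counts. At 10 counts only circles with all counts in 1 line could be called.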

Other observations

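Several listed circles had under 10 counts over the control libraries but counts in 1 line only. The circle of NFATC3 (hsa_circ_0000711), a transcription factor of the calcineurin pathway, had 7 and 2 counts in untreated and treated MiaPaCa-2 and 0 in both PANC-1 libraries. That of SFMBT2 (hsa_circ_0000211), a Polycomb group protein, had 3 and 16 counts in PANC-1 control and TQ and 0 in both MiaPaCa-2 libraries. That of MTO1 (hsa_circ_0007874), a mitochondrial transfer RNA modifying protein, had 3 and 3 in PANC-1 and 0 in MiaPaCa-2. That of RSL1D1 (hsa_circ_0000673), a nucleolar protein, had 9 counts in MiaPaCa-2 control and 0 in the other 3 libraries. Such counts are too low for a call between the lines, and these circles were picked after their values were seen.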
